A study of Cavia porcellus with 18 samples.

Results

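Peaks of RNA polymerase II phosphorylated on serine 5 (Pol II PS5) that overlapped an H3K4me1 peak by at least 1 base were located inside that H3K4me1 peak. They numbered 40977 of the 67423 Pol II PS5 peaks (60.8%), and they lay on 31745 of 327682 H3K4me1 peaks. The hippocampus was taken from 3 guinea pigs (Cavia porcellus), all male, wild type, untreated and aged 12 weeks. After fixation in 0.5% formaldehyde and sonication, chromatin was pulled down by means of an H3K4me1 antibody (3 libraries, 1 per animal) or one to the Pol II C-terminal domain phosphorylated on serine 5 (3 libraries, 1 per animal). Bisulfite sequencing of the DNA recovered with H3K4me1 (ChIP-bisulfite, 3 libraries) and reduced representation bisulfite sequencing of DNA (RRBS, 6 libraries of 2 read lengths) gave CG methylation as a further readout. Every deposited value used here stands for all animals together. There was therefore no spread between animals and no test over samples, and each interval below is a 95% interval that covers counting error only. Peaks share animals and reads and are not replicates. The hippocampus is a mixture of neurons and glia, and the lists do not say which cells gave a peak.

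H3K4me1, a single methyl group on lysine 4 of histone H3, marks enhancers and the shoulders of promoters. At an active promoter the nucleosomes beside the start site carry 3 methyl groups on the same lysine, and H3K4me1 tends to lie farther out on either side. Serine 5 of the Pol II C-terminal domain is phosphorylated when transcription initiates, so Pol II PS5 is typically highest near start sites and is also found at active enhancers.

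Position was expressed as the distance of the Pol II PS5 midpoint from the centre of the H3K4me1 peak, divided by the distance from centre to edge, so that 0 is the centre and 1 the edge. Equal chance at every base of the H3K4me1 peak puts 20% of midpoints in each of 5 equal classes of this relative distance, with a mean of 0.5. The class under 0.2 is named the central zone and the class from 0.8 the outer zone. The median width was 272 bases for the overlapping Pol II PS5 peaks, 1785 bases for all H3K4me1 peaks and 3529 bases for H3K4me1 peaks with a Pol II PS5 peak. Of the 40977 peaks, 38131 had their midpoint inside the H3K4me1 peak and 2846 (6.95%) overlapped it with the midpoint outside. Equal chance for every overlapping placement gives 12.1% outside. Another 311 of the 40977 touched at least 2 H3K4me1 peaks and were assigned to the one with the largest overlap.

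The lists held many small scaffolds. The span of a scaffold was taken as the end of its last listed peak, and scaffolds without a listed peak were not counted. Scaffolds spanning under 1 Mb held 14718 of the 40977 peaks (35.9%) on 171 Mb, with 116 Pol II PS5 peaks per Mb of span against 18.8 per Mb on the longer scaffolds. Densities over full scaffold lengths were not computed and can be lower. Of those 14718 peaks, 91.6% lay on a scaffold for which no start site was listed. Values on the scaffolds of at least 1 Mb are therefore given beside the main results.

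Over all H3K4me1 peaks, Pol II PS5 midpoints were spread almost evenly from centre to edge. The central zone held 20.4% of midpoints (7788 of 38131, exact Clopper-Pearson interval 20.02 to 20.8) and the outer zone held 19.2% (7316, interval 18.8 to 19.6). The mean relative distance was 0.494. In classes of 0.1 the share ran from 9.31% in the class at the edge to 10.4% between 0.4 and 0.5. The small lean to the centre depended on the placement it was set against: among peaks lying wholly inside, 22.6% were in the central zone where equal chance for whole peaks gives 23.1%, and 12.9% were in the outer zone where it gives 12.4%. On scaffolds of at least 1 Mb the central and outer shares were 21.0% and 17.9%, and on the shorter scaffolds they were 19.5% and 21.4%. Among the 20 scaffolds with the most midpoints (352 to 753 each) the central share ran from 17.8% to 26.0% and the outer share from 14.3% to 21.3%, with the central share the higher on 17 of 20. Position also differed little with the authors' Pol II PS5 score: from the lowest to the highest of 4 score groups, cut at the quartiles of the whole list, the central zone held 20.9%, 20.5%, 19.7% and 20.5%.

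The even total was made of H3K4me1 width classes that leaned in different directions. Classes of width include their lower limit and not their upper one. In H3K4me1 peaks under 1000 bases wide, 23.2% of 3631 midpoints were in the central zone (interval 21.8 to 24.6) and 15.2% in the outer zone (14.1 to 16.4). In peaks of 1000 to 2000 bases the lean was outward, with 18.6% of 4793 in the central zone (17.5 to 19.7) and 21.4% in the outer zone (20.2 to 22.6). Peaks of 2000 to 5000 bases had 22.2% of 14242 in the central zone (21.5 to 22.9) and 19.4% in the outer zone. Peaks of 5000 to 10000 bases had their largest share midway between centre and edge, 22.2% of 10474 in the third class of relative distance. Peaks of at least 10000 bases leaned outward again, with 17.5% of 4991 in the central zone (16.5 to 18.6) and 21.4% in the outer zone (20.3 to 22.6). The central share of the widest class minus that of the narrowest was -5.66 percentage points, and -9.84 points for Pol II PS5 scores above the median alone. On scaffolds of at least 1 Mb the central shares were 23.3%, 19.0%, 22.8%, 20.7% and 17.9% from the narrowest to the widest class, and the outer shares were 15.4%, 22.2%, 18.5%, 14.0% and 20.5%. Over all scaffolds the outer share in peaks of 5000 to 10000 bases was 18.3%.

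**Figure D1:**
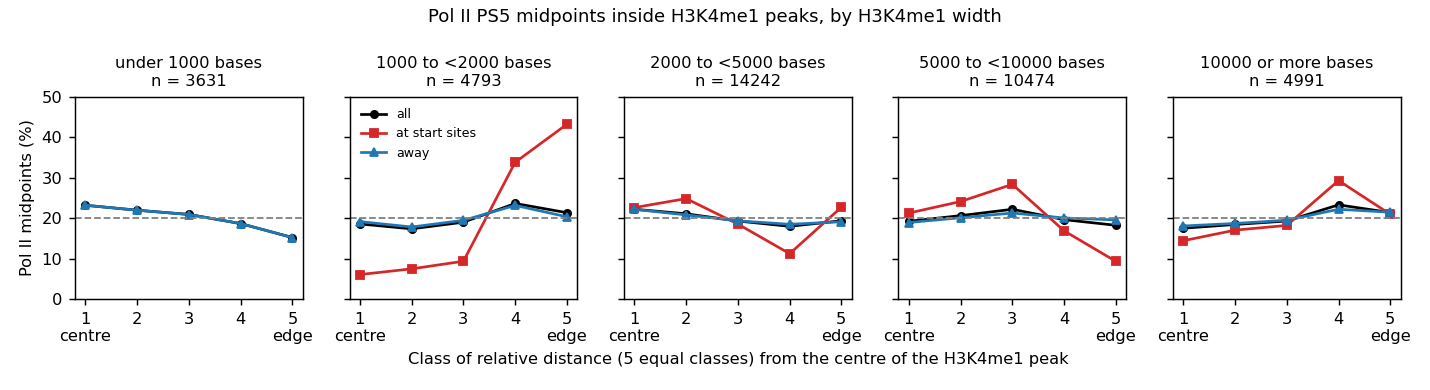
Share of Pol II PS5 midpoints (y axis, percent) in each of 5 equal classes of relative distance from the centre to the edge of the H3K4me1 peak (x axis), in panels by H3K4me1 width; black circles are all midpoints, red squares those within 1000 bases of a listed start site (not drawn under 1000 bases, where there are 17) and blue triangles all others, and the dashed line is the 20% of equal chance. At start sites the outer zone holds 43.2% in peaks of 1000 to 2000 bases and 9.36% in peaks of 5000 to 10000 bases, while the other midpoints stay between 15.2% and 23.2% in every class.

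In narrow peaks the geometry of overlap enters these shares, since a Pol II PS5 peak can be as wide as the H3K4me1 peak. Of the 4687 Pol II PS5 peaks on H3K4me1 peaks under 1000 bases, 22.5% had the midpoint outside, where equal chance gives 39.4%. Only 1430 lay wholly inside, and of these 35.5% were in the central zone (interval 33.0 to 38.0) where equal chance for whole peaks gives 41.1%. The central lean of the narrowest class therefore held for midpoints but turned around for whole peaks. In peaks of 2000 to 5000 bases both readings had a central share above equal chance, with 24.5% of 12878 wholly enclosed peaks (23.7 to 25.2) against 22.6%. The outer share of these enclosed peaks was also above equal chance, 12.1% (11.5 to 12.7) against 11.4%. In peaks of at least 10000 bases both readings leaned outward, with 17.8% of 4912 in the central zone (16.8 to 18.9) against 20.4%. For whole peaks, then, the central share was below equal chance in both the narrowest and the widest class, and further below it in the narrowest, so the contrast between these classes seen for midpoints did not carry over.

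Wider H3K4me1 peaks held a Pol II PS5 midpoint more often, while the density per base had no steady order with width. The share of H3K4me1 peaks with at least 1 midpoint ran from 3.69% under 1000 bases through 5.39%, 9.97% and 22.8% to 41.6% at 10000 bases or more. Per Mb of H3K4me1 the number of midpoints was 69.3, 41.2, 39.7, 52.1 and 35.2 in the same order of width. On scaffolds of at least 1 Mb it was 51.1, 28.6, 24.7, 32.1 and 30.8, so the narrowest class was the densest in both and the widest was the least dense only over all scaffolds. Where a single midpoint lay in the H3K4me1 peak, 21.6% were in the central zone and 17.5% in the outer zone. With 4 to 14 midpoints in a peak the order was opposite, 17.5% and 25.3%. Width was not held equal in this comparison. For single midpoints in peaks of at least 10000 bases the central and outer shares were 18.6% and 19.1%.

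The column of the authors' H3K4me1 scores mixes 2 ranges, under 40 and from 42, named here the low and the high scale and never ranked together. On the low scale 20.03% of 16450 midpoints were in the central zone and 20.5% in the outer zone, and on the high scale 20.7% of 21681 and 18.2%. Scores were cut into 3 equal parts over all H3K4me1 peaks of a scale. The clearest gradient was in low-scale peaks under 1000 bases, where the central share was 18.3% in the lowest part (238 of 1298, interval 16.3 to 20.6), 23.0% in the middle part and 28.0% in the highest part (385 of 1373, 25.7 to 30.5). The outer share in the same peaks was 20.1%, 15.9% and 10.3%. The geometry of overlap enters the shares of this narrow class, and the gradient was not computed for whole peaks. In low-scale peaks of 1000 to 2000 bases the central share was 17.7% in the lowest part and 19.5% in the highest. In those of 2000 to 5000 bases it was 18.9% and 20.5%. High-scale peaks of 2000 to 5000 bases also had central shares that rose with score, 20.6%, 23.4% and 25.7%. In high-scale peaks of 5000 to 10000 bases it was the outer share that differed, 19.4%, 14.7% and 14.0%.

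Other high-scale classes did not follow that order. In peaks of at least 10000 bases the outer share was 19.9%, 18.2% and 22.6%, and in peaks of 5000 to 10000 bases the central share was 20.6%, 21.0% and 19.0%. In high-scale peaks of 1000 to 2000 bases the outer share was 17.2% in the lowest part of the scores, 25.2% in the middle part and 28.8% in the highest part (141 of 490, 24.8 to 33.0). Without the midpoints at start sites these outer shares were 16.0%, 21.1% and 23.1%, and the interval of the first (12.5 to 19.9) overlapped that of the last (18.9 to 27.7). Averaged over width classes, the highest part of the low scale had 3.75 percentage points more midpoints in the central zone than the lowest part (1.26 to 6.25) and 5.41 fewer in the outer zone, a difference of -5.41 (-8.07 to -2.75). In both low-scale averages the class under 1000 bases had the largest difference of the classes used. On the high scale the central difference was 1.13 points (-0.23 to 2.49), an interval that includes 0, and the outer difference was -1.69 points (-3.02 to -0.36). The high-scale central difference depended on the setting: it was -0.24 ± 1.74 points (95% interval) on scaffolds of at least 1 Mb, 0.027 ± 1.62 with 1 Pol II PS5 peak per H3K4me1 peak, 1.90 ± 1.46 without start sites and 1.58 ± 1.41 with H3K4me1 peaks under 500 bases apart joined, and the last 2 intervals exclude 0.

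The clearest departures from an even spread were at transcription start sites. The table of CG sites lists a distance to a transcription start site, from which 19847 start sites and the direction of their genes were recovered, so only genes with a listed CG site are represented. A midpoint within 1000 bases of one of them is described as at a start site. Of the overlapping Pol II PS5 peaks 3664 (8.94%) were at a start site, and of the 26446 Pol II PS5 peaks outside H3K4me1 219 (0.828%) were. Those at start sites were the wider and higher-scoring: their median width was 372 bases (quartiles 239 and 556) with a median score of 5.13, and for the other overlapping peaks the medians were 266 bases and 3.31. The Pol II PS5 scores were written in 2 formats, with at most 2 decimals for 57.6% of the peaks at start sites and 12.9% of the others, so this difference in score also follows the format, and the part of the format in it was not tested.

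In distance from the centre alone, the 3352 midpoints inside H3K4me1 at start sites were also nearly even, with 19.1% in the central and 18.1% in the outer zone. Along the direction of the gene they were not. Measured from the upstream to the downstream end of the H3K4me1 peak, 65.3% of them (2189 of 3352, interval 63.7 to 66.9) were on the upstream side of its midline, where equal chance gives 50%. The value was 64.4% for the 1741 at genes on the forward strand and 66.3% for the 1611 at genes on the reverse strand. Among the 20 scaffolds with the most midpoints the upstream share ran from 50% to 75% and was over 50% on 19. The midpoints were at 3166 start sites in 3092 H3K4me1 peaks. Relative to the listed start site, with upstream negative, their median position was -184.5 bases (quartiles -423.5 and -3.38), and 75.3% were upstream of it.

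**Figure D2:**
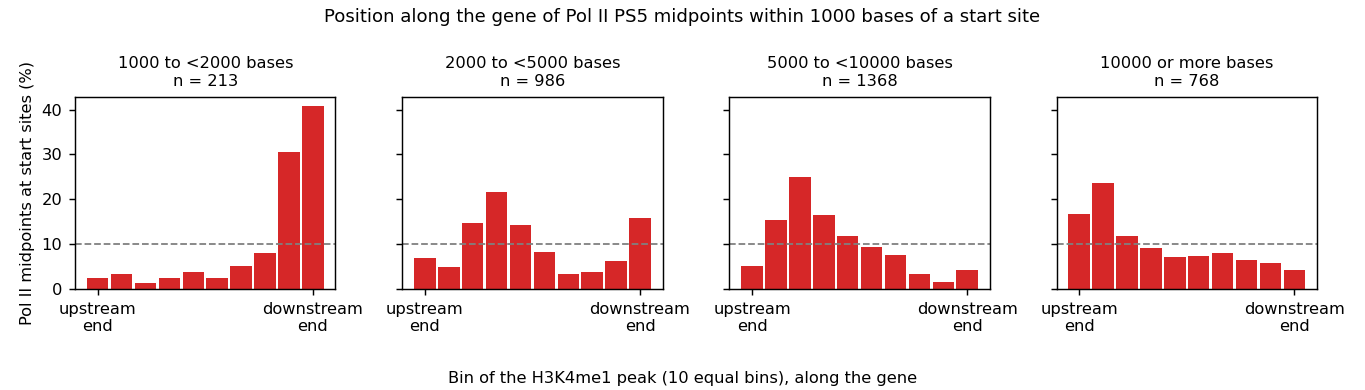
Share of Pol II PS5 midpoints at start sites (y axis, percent) in each of 10 equal bins of the H3K4me1 peak from its upstream to its downstream end along the gene (x axis), in panels by H3K4me1 width; the dashed line is the 10% of equal chance. The tallest bar is the last bin in peaks of 1000 to 2000 bases (40.8%), the fourth in peaks of 2000 to 5000 bases (21.6%), the third in peaks of 5000 to 10000 bases (25.1%) and the second in peaks of at least 10000 bases (23.6%).

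The direction of the lean changed with H3K4me1 width, but so did the share of midpoints whose start site lay inside the H3K4me1 peak. That share was 30.0% in peaks of 1000 to 2000 bases. In the wider classes it was 81.0%, 96.0% and 97.0% in order of width. Most H3K4me1 peaks of the narrow class thus lay beside the start site and did not enclose it. In H3K4me1 peaks of 1000 to 2000 bases only 13.1% of 213 midpoints were in the upstream side and 71.4% (152, interval 64.8 to 77.3) were in the last 20% of the peak, at the downstream end. In peaks of 2000 to 5000 bases 62.6% of 986 were in the upstream side, with a second group of 22.1% in the last 20%. In peaks of 5000 to 10000 bases 73.9% of 1368 (71.5 to 76.2) were in the upstream side and 5.92% in the last 20%. In peaks of at least 10000 bases 68.2% of 768 were in the upstream side, and 40.2% were in the first 20% at the upstream end.

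In bases, the side of the H3K4me1 peak upstream of Pol II PS5 varied less with width than the side along the gene. From the class of 1000 to 2000 bases to the widest class the median distance from the midpoint to the upstream edge was 1318, 1679, 2118 and 4215 bases. The median distance to the downstream edge was 212, 2371, 4291 and 9624 bases in the same order. From 2000 bases upward the longer side was the one that runs into the gene.

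Of the narrow peaks with Pol II PS5 at their downstream end, most had another H3K4me1 peak close by on the other side of Pol II PS5. For the 152 midpoints in the last 20% of peaks of 1000 to 2000 bases, the next H3K4me1 peak downstream began a median of 500.5 bases away, under 2000 bases in 96.7%, while the next one upstream was a median of 4111 bases away. For the 218 in the last 20% of peaks of 2000 to 5000 bases these medians were 440 and 3099 bases. For the other 768 midpoints in that width class they were 3256 bases downstream and 3627 upstream. In peaks of at least 10000 bases the 77 midpoints in the last 20% had medians of 1866 bases downstream and 1334 upstream, so the short gap beside Pol II PS5 was not seen there. With both ends pooled, on scaffolds of at least 1 Mb, the 586 midpoints in the outer zone at start sites had a median gap of 606.5 bases at the nearer edge and 2556 bases at the farther edge. The gap at the nearer edge was under 1000 bases for 67.4% of them, against 16.2% of all gaps between H3K4me1 peaks. Away from start sites the contrast was small, with 2264 bases at the nearer and 2508 at the farther edge for 3666 midpoints in the outer zone. After H3K4me1 peaks under 500 bases apart were joined, 116 midpoints at start sites were left in the class of 1000 to 2000 bases. Of these 64.7% were still in the last 20% and 19.8% on the upstream side. Over all widths the excess over 50% in the upstream side was 21.2 points against 15.3 for the peaks as listed.

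Single regions show the kinds of position. For each H3K4me1 width class from 1000 bases upward they are the 2 highest-scoring Pol II PS5 peaks at start sites on scaffolds of at least 1 Mb, a rule added after values were seen. Positions are as the files give them, and neither the build nor the number of the first base is stated in the labels or files. The Pol II PS5 peak at scaffold_18:23313575-23314343 (score 15.7) hung over the edge of the H3K4me1 peak at scaffold_18:23313829-23315808. Its midpoint lay at -125 bases from the start site of ENSCPOG00000011785, a gene on the reverse strand, with 1849 bases of H3K4me1 upstream and 130 bases downstream. At scaffold_9:50849895-50850540 (score 14.33), near the start of ENSCPOG00000005760, the sides measured 1460 bases upstream and 65.5 bases downstream. In the class of 2000 to 5000 bases, the opposite layout was seen at scaffold_32:19427022-19427835 (score 29.19), whose midpoint was 106.5 bases into ENSCPOG00000022808, with 488.5 bases of H3K4me1 upstream and 3188 bases downstream. The other, scaffold_3:62227564-62228100 (score 26.6), had 1998 bases upstream and 2480 downstream. In the class of 5000 to 10000 bases both examples went against the majority of their class: scaffold_23:2044136-2044903 (score 39.21) had 8619 bases upstream and 185.5 downstream, and scaffold_6:3015588-3016035 (score 20.69) had 4948 and 3910. In the widest class the highest score was at scaffold_13:48355376-48356469 (20.88), with 11778 bases upstream and 4507 downstream. At scaffold_29:9117052-9118002 (score 17.73), near the start of ENSCPOG00000027406, an H3K4me1 peak of 11658 bases extended 2044 bases upstream and 9614 bases downstream of the midpoint. These identifiers could not be paired with gene symbols, and what these genes do is not stated here.

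The listed start sites themselves, and not the Pol II PS5 midpoints, were then placed in H3K4me1 peaks. Of the 3891 start sites with a Pol II PS5 midpoint within 1000 bases, 82.3% lay inside an H3K4me1 peak, against 64.2% of the 15956 without. With Pol II PS5 nearby, 69.3% of the 3203 enclosed start sites (interval 67.6 to 70.9) were in the upstream side of the H3K4me1 peak. Without it the share was 48.2% of 10239 (47.2 to 49.2), close to even. The same contrast held in each width class from 2000 bases upward, with 69.8% against 47.7%, 71.6% against 49.8%, and 67.3% against 48.0%. In H3K4me1 peaks of 5000 to 10000 bases a start site with Pol II PS5 had a median of 2301 bases of H3K4me1 upstream and 4131 bases downstream. One without had 3312 and 3291 bases. In H3K4me1 peaks of 1000 to 2000 bases the order was opposite, with 41.0% of 78 on the upstream side with Pol II PS5 (30.0 to 52.7) and 47.8% of 590 without, and these intervals overlap. There a start site with Pol II PS5 had a median of 1041 bases of H3K4me1 upstream and 582.5 downstream. Thus, from 2000 bases of width upward, the longer H3K4me1 side on the gene was seen at start sites with Pol II PS5 and not at those without. Start sites were counted by position and strand, so several can share a gene, an H3K4me1 peak or a Pol II PS5 peak. A start site without Pol II PS5 within 1000 bases can lie in the same H3K4me1 peak as one with it. Such start sites were not set apart.

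**Figure D3:**
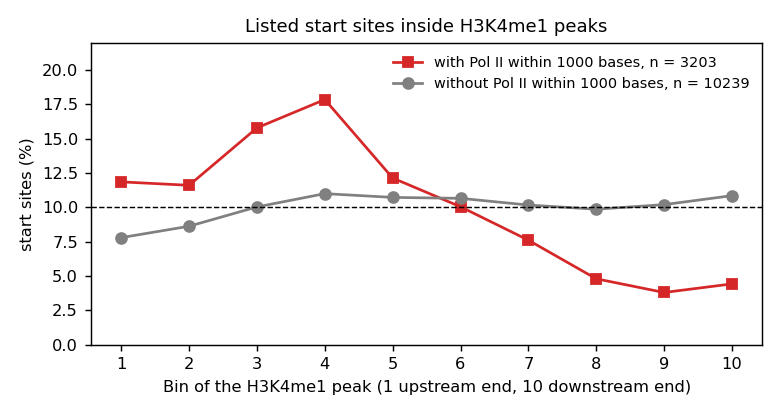
Share of listed start sites inside H3K4me1 peaks (y axis, percent) in each of 10 equal bins of the peak from the upstream end (1) to the downstream end (10) along the gene (x axis), for start sites with a Pol II PS5 midpoint within 1000 bases (red squares) and without one (grey circles); the dashed line is the 10% of equal chance. The share with Pol II PS5 is highest in the fourth bin, 17.9%, and lowest in the ninth, 3.81%, while the share without it stays between 7.80% and 11.01%.

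Counted per base over H3K4me1 peaks of all widths together, Pol II PS5 was densest at a pair of distances inside the edges. Peaks under 1000 bases, the densest width class on scaffolds of at least 1 Mb (51.1 per Mb), supply bases only within 500 bases of an edge. The distance classes therefore differ in their mix of widths, and density by distance was not computed within a width class. On scaffolds of at least 1 Mb there were 29.5 midpoints per Mb inside H3K4me1 peaks (exact Poisson interval 29.1 to 29.9) and 13.7 per Mb between them (13.5 to 13.9). Just inside the edge the density was 32.4 per Mb in the first 100 bases and 36.0 per Mb from 100 to 200 bases (34.4 to 37.5). It was lowest, 21.6 per Mb (20.6 to 22.5), from 500 to 750 bases. A second maximum of 36.6 per Mb (35.2 to 38.0) lay 1500 to 2000 bases inside, and beyond 10000 bases the density was 23.2 per Mb. Outside, it was 26.6 per Mb within 100 bases of an edge (25.3 to 28.0), 19.3 from 100 to 200 bases and 13.2 from 750 to 1000 bases. The step at the edge itself was small, 26.6 against 32.4 per Mb.

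Densities inside H3K4me1 are per Mb of all H3K4me1 peaks, not only of those with a start site. Widths were not held equal, and only 17 of all 3352 midpoints at start sites lay in peaks under 1000 bases. Counted in this way, the inner maximum was the sharper for midpoints at start sites. Their density on these scaffolds was 3.18 per Mb in the first 100 bases, 1.099 per Mb at 500 to 750 bases (0.90 to 1.33) and 8.06 per Mb at 1500 to 2000 bases (7.42 to 8.74). Away from start sites the same classes had 29.2, 20.5 and 28.5 per Mb, so the pattern of near-edge and inner maxima was also present there with a smaller range. On all scaffolds together the density was higher throughout, 43.8 per Mb inside and 14.7 outside, with maxima in the same classes of distance.

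**Figure D4:**
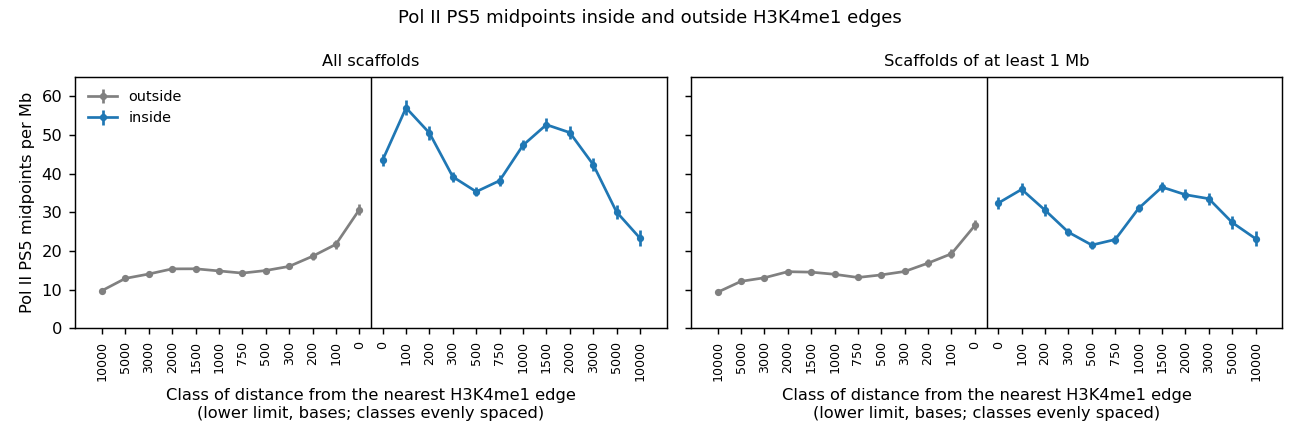
Pol II PS5 midpoints per Mb (y axis) by distance from the nearest H3K4me1 edge, outside (grey, left of the line) and inside (blue, right of the line), for all scaffolds and for scaffolds of at least 1 Mb; ticks give the lower limit of each distance class, classes are drawn evenly spaced, and bars are exact 95% Poisson intervals. On the longer scaffolds the inside density, with all H3K4me1 widths together, is 36.0 at 100 to 200 bases, 21.6 at 500 to 750 bases and 36.6 at 1500 to 2000 bases.

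CG methylation, which was not used to choose or place the peaks, was lowest around the Pol II PS5 midpoint. Levels were averaged within each H3K4me1 peak first. The 53816 sites lay in 8102 H3K4me1 peaks, 27.6% of those with a midpoint inside, and had a median of 17 RRBS reads (at least 10). In the 1196 H3K4me1 peaks with sites both within 250 bases of a midpoint and at least 1000 bases from every midpoint, RRBS methylation averaged 31.5% near and 61.5% far. The difference within a peak was -30.0 ± 43.6 percentage points (SD across peaks), and the near level was the lower in 872 peaks and the higher in 294. ChIP-bisulfite gave 26.2% near and 53.1% far, a difference of -26.9 ± 49.8 points, with 821 lower and 283 higher.

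The dip was deeper at start sites than elsewhere but was present in both. At start sites RRBS averaged 7.34% near and 59.9% far in 328 H3K4me1 peaks, a difference of -52.6 ± 35.9 points, and 294 of the 328 were lower near. Away from start sites the averages were 40.8% and 62.2% in 856 peaks, a difference of -21.4 ± 43.5 points, with 567 lower and 269 higher. Promoters of many genes are rich in CG and unmethylated, and CG density was not held equal between near and far sites. At start sites the low stretch, measured from the Pol II PS5 midpoint, reached farther downstream than upstream. The midpoints at start sites had a median position of -184.5 bases, upstream of the start site, and methylation by distance from the start site itself is not given here. The upstream and downstream means come from different sets of H3K4me1 peaks. RRBS averaged 10.1% in the last 250 bases upstream and 8.08% in the first 250 downstream. From 250 to 500 bases it averaged 17.7% upstream and 12.2% downstream, and from 500 to 1000 bases 37.2% upstream (SD 35.1, 677 H3K4me1 peaks) and 23.7% downstream (SD 31.2, 805 peaks). ChIP-bisulfite in the last of these classes averaged 33.2% upstream and 23.8% downstream. From 1000 to 2000 bases RRBS was 56.6% upstream and 57.5% downstream.

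**Figure D5:**
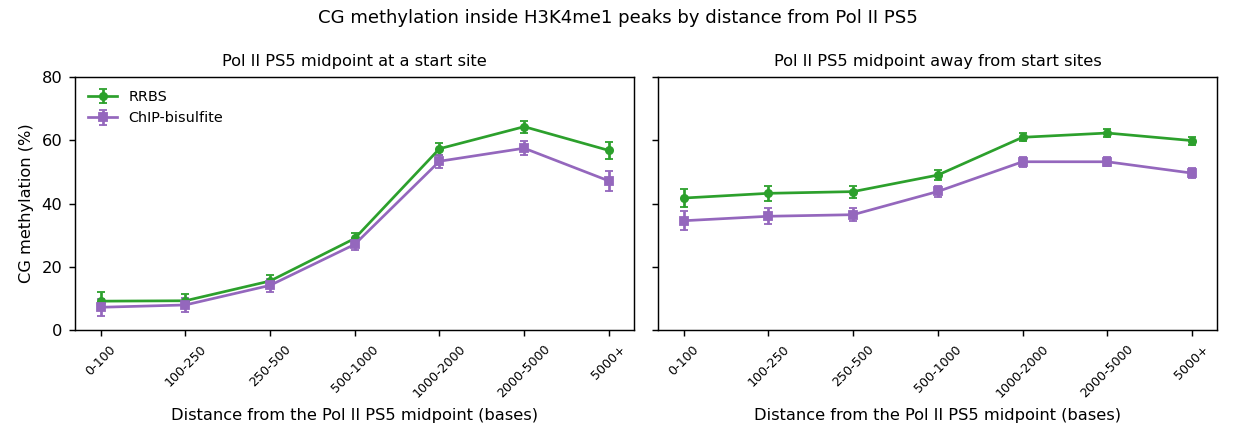
Mean CG methylation (y axis, percent) inside H3K4me1 peaks by distance from the nearest Pol II PS5 midpoint in the same peak (x axis, bases), for midpoints at start sites (left) and away from them (right); green circles are RRBS, purple squares ChIP-bisulfite, and bars are 95% normal intervals of the mean over H3K4me1 peaks. At start sites RRBS is 9.19% within 100 bases and 57.4% at 1000 to 2000 bases, and away from them 41.8% and 61.0%.

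Away from start sites, the RRBS level beside Pol II PS5 had no steady order with where in the peak Pol II PS5 lay. At start sites it was highest in the outer zone. The SDs are spreads across H3K4me1 peaks, and differences between classes were not tested. Away from start sites, RRBS within 250 bases of the midpoint averaged 41.1% for midpoints in the central zone (SD 37.0, 379 H3K4me1 peaks) and 41.8% for those in the outer zone (SD 36.8, 127 peaks), with 43.7% to 47.6% between. At start sites it was 7.09% in the central zone (SD 17.8, 127 peaks) and 12.4% in the outer zone (SD 27.0, 46 peaks). ChIP-bisulfite varied more: at start sites it averaged 4.52% in the central zone (SD 14.4) and 15.1% in the outer zone (SD 33.4), and away from them 33.1% in the central zone (SD 40.6), 43.6% in the class next to the outer zone (SD 43.3, 285 peaks) and 35.5% in the outer zone (SD 41.2). H3K4me1 peaks also had a profile of their own. Without a Pol II PS5 peak they averaged 59.5% in the central zone and 71.7% in the outer zone by RRBS, and with a midpoint 49.3% and 56.9%.

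The highest-scoring Pol II PS5 peaks were picked in the central and the outer zone separately, so their presence in both zones follows from the choice. On low-scale H3K4me1 peaks the 3 highest in the central zone were scaffold_1:68170505-68170697 with a score of 1149, chrM:1440-2465 with 408.67 and scaffold_17:1139280-1139507 with 264.99. The first and last of these were 192 and 227 bases wide on H3K4me1 peaks of 589 and 628 bases, and the nearest listed start sites placed them at -391089 and 70028 bases. The 3 highest in the outer zone were scaffold_12:9495227-9495419 (88.16), scaffold_2299:6755-7327 (60.59) and scaffold_311:11968-12224 (55.34). On high-scale H3K4me1 peaks the 3 highest in the central zone were scaffold_9:10234819-10235011 (526.31), scaffold_1506:2082-2321 (255.42) and scaffold_1:80982042-80982435 (169.76). The first and last of these lay on H3K4me1 peaks of exactly 1000 bases. The 3 highest in the outer zone were scaffold_13:29785336-29785535 (413.62), scaffold_90:4-263 (377.27) and scaffold_355:266244-266436 (243.63). On scaffold_90 the H3K4me1 peak begins at position 1, so the edge nearest to Pol II PS5 is at the end of the scaffold. Edges at scaffold ends were counted like other edges. None of these 12 peaks was at a listed start site. The Pol II PS5 peaks of 4 of them were 192 bases wide, and 4 lay on scaffolds under 1 Mb besides the 1 on the mitochondrial genome, chrM, where all 8 Pol II PS5 peaks overlapped H3K4me1 although that DNA carries no histones. At the limit of the overlap rule, 14 Pol II PS5 peaks overlapped by 1 base, such as scaffold_239:408357-408549 with a score of 6.7, and 18 abutted an H3K4me1 peak with 0 bases between, such as scaffold_283:67559-67779 with 8.59. Overlaps under 10 bases numbered 124.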

How the data were processed

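Deposited H3K4me1 and Pol II PS5 peaks, each list pooled over animals by the authors, carry the authors' score, used only to rank or filter within its list. Tools listed for these libraries, per the submitters' processing notes and without roles, were MACS2, HOMER 4.6, Bowtie2 2.2.3 and SAMtools 1.1, while the build was left unstated in what was read here. CG methylation was deposited as percent, per the file headers, for sites measured in both bisulfite assays, and RRBS reads as counts per C position from 10 reads upward. Depth per ChIP library is not in the deposited peak lists and is unknown.

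Overlaps, relative positions, closed-form equal-chance shares and intervals (exact Clopper-Pearson for shares, exact Poisson for densities, 95%) were computed with Python 3.11.15, numpy 2.4.6, pandas 2.3.3 and scipy 1.17.1, and the position measure was tested on simulated data. Each Pol II PS5 peak was assigned to the H3K4me1 peak of largest overlap. Start sites and strands came from site positions and their listed distances. Score differences were averaged over width classes with at least 50 midpoints in each part. Named regions were the 3 highest Pol II PS5 scores per score scale in the central and outer zone, and a peak on each side of the overlap limit; the start-site regions were added after their values were seen. The rule and the alternatives were set with earlier results of these data known. RRBS controls without bisulfite, the authors' list of differentially methylated sites and their table of peak averages were not used here.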

Additional observations from a re-analysis of the deposited data

How the results depend on the processing

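No paired analysis was possible because the deposited lists pool the animals and carry no replicate numbers. Of 53 alternatives run on 9 results, 36 moved the value by less than its counting interval, 15 moved it by more and 2 reversed it. Both reversals came with the whole Pol II PS5 peak placed inside the H3K4me1 peak: the central excess over equal chance was -0.48 points (0.42 for midpoints) and the outer one 0.50 (-0.81 for midpoints), so no overall lean stands under both placements. With the Pol II PS5 scores above the median alone the central share of the widest minus the narrowest class was -9.84 points (-5.66 over all) and the inside to outside density ratio 2.46 (2.34). With 1 Pol II PS5 peak per H3K4me1 peak the outer excess was -1.60 points. On scaffolds of at least 1 Mb the central excess was 0.97, the outer excess -2.13 and the high-scale score difference -0.24 points (1.13 on all scaffolds). This score difference changed sign, and it is counted among the 15 that moved and not among the 2 reversals. Pol II PS5 scores of at most 2 decimals gave an outer excess of -1.81 points. Near-minus-far methylation by RRBS was -21.4 points without start sites, -26.7 with at least 20 reads and -52.6 only at start sites (-30.0 over all). For ChIP-bisulfite these were -18.8, -21.5 and -48.0 (-26.9). The excess in the upstream side was 18.8 points within 500 bases of a start site and 21.2 with H3K4me1 peaks under 500 bases apart joined (15.3 as listed). The settings by score format and only at start sites were chosen after seeing the data, as was every alternative run on the excess in the upstream side. Joined H3K4me1 peaks were a planned setting for the results on relative position, width and score. The causes were not tested. Depth per library is unknown, so a region without a peak was not detected and is not shown to lack Pol II PS5.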

Other observations

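Pol II PS5 midpoints between H3K4me1 peaks were densest in the shortest gaps. On scaffolds of at least 1 Mb, gaps under 500 bases held 61.4 midpoints per Mb (321 midpoints, exact Poisson interval 54.9 to 68.5), gaps of 500 to 1000 bases 32.0 per Mb (29.6 to 34.4) and gaps of 1000 to 2000 bases 15.2 per Mb. Gaps of 10000 bases or more held 11.9 per Mb. The shortest gaps thus exceeded the 29.5 per Mb measured inside H3K4me1 peaks of all widths on the same scaffolds. That average covers bases far from any edge as well. Inside H3K4me1 peaks under 1000 bases wide the density was 51.1 per Mb (49.1 to 53.2), nearer to that of the shortest gaps. Within gaps of 500 to 1000 bases 27.6% of 695 midpoints were in the outer zone (nearest the edges), next to H3K4me1, and 14.82% in the central zone, with equal chance giving 20% in each.

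In H3K4me1 peaks at start sites, the Pol II PS5 score differed with the side in some width classes. In peaks of 5000 to 10000 bases the median score was 5.45 for 1011 midpoints in the upstream side and 4.19 for 357 in the downstream side. In peaks of 1000 to 2000 bases it was 3.18 for 28 in the upstream side and 6.19 for 185 in the downstream side. In peaks of 2000 to 5000 bases the medians were 5.18 and 5.16, and in those of at least 10000 bases 4.44 and 3.79. Scores with at most 2 decimals made up 62.4% and 51.0% in the first pair and 17.9% and 65.4% in the second, and the part of the score format in these differences was not tested.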
